A study of Homo sapiens with 9 samples.

Results

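Axon guidance ligands and receptors were followed in LAN5 cells, an established human neuroblastoma line, after knockdown of MYCN or HAND2. Members were taken from the deposited table by gene symbol alone, as every listed semaphorin of classes 3 to 7, plexin, neuropilin, ephrin, Eph receptor, Slit, Robo, netrin, UNC5 receptor and repulsive guidance molecule (RGM), plus DCC. The rule found 66 of 25084 genes, 34 ligands and 32 receptors, and used no measured value. The families held 19 semaphorins, 9 plexins, 2 neuropilins, 8 ephrins, 12 Eph receptors, 3 Slits, 4 Robos, 2 netrins, 5 genes of the DCC and UNC5 group and 2 RGMs. The deposited table held no gene under the symbols SEMA3E, EPHA3, EPHA4, NTN4 or NTN5, so these families are not complete here. Some class names do not match a gene's part in every cell, since ephrins and transmembrane semaphorins can also signal into the cell that carries them.

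Total RNA was sequenced 72 h after siRNAs, short RNAs that direct degradation of a matching transcript, were brought into the cells by nucleofection, a form of electroporation. There were 3 libraries with a control siRNA (siCTR), 3 with an siRNA against MYCN (siMYCN) and 3 with an siRNA against HAND2 (siHAND2). The labels name 1 siRNA per target and 1 cell line, and all 9 libraries share the line, the medium and the nucleofection. No label says that the replicates were separate cultures, so p-values measure the spread between these libraries, which may be technical.

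Axon guidance genes encode cues and the receptors that read them at the tip of a growing axon. Semaphorins act through plexins, often with a neuropilin as coreceptor; ephrins act through Eph receptors, Slits through Robos, and netrins through DCC and the UNC5 receptors. Neuroblastoma arises from the sympathoadrenal branch of the neural crest, whose migrating cells and axons are steered by the same cues. MYCN and HAND2 are transcription factors of the basic helix-loop-helix class, whose members bind short DNA sequences called E-boxes.

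Library depth, read from the smallest step between low values, was 21.1 M to 32.7 M assigned reads. MYCN was at 1848, 1894 and 1786 CPM (a read count scaled to library size) in the siCTR libraries, 1338, 1245 and 1285 in siMYCN and 898, 969 and 877 in siHAND2. MYCN was thus lower in both knockdowns, by limma's log2 fold change -0.51 in siMYCN and -1.01 in siHAND2 (adjusted p = 7.15e-07 and 1.72e-10), and the siHAND2 libraries held less of it than the siMYCN libraries (log2 fold change -0.50, adjusted p = 6.21e-07). HAND2 was at 516, 499 and 489 CPM with siCTR, 588, 557 and 568 with siMYCN and 268, 267 and 280.4 with siHAND2, so it rose by 0.19 in siMYCN and fell by 0.88 in siHAND2 on the log2 scale (adjusted p = 0.00183 and 1.25e-10). All siHAND2 values were thus measured with both transcripts reduced. All 13 sympathetic noradrenergic markers reached 1 CPM in at least 3 libraries, 11 rose in siMYCN, and 3 rose and 4 fell in siHAND2; their summed level was 2929 to 3095 CPM with siCTR, 3627 to 3762 with siMYCN and 3102 to 3232 with siHAND2. None of the Schwann cell, endothelial or leukocyte markers did. Of 12 fibroblast and mesenchymal markers, 11 were in the table and 9 passed that filter; their summed level was 414 to 425 CPM in siCTR, 469 to 481 in siMYCN and 752 to 838 in siHAND2. In siHAND2, 6 of these genes rose and 1 fell, and in siMYCN 6 rose. These shifts accompanied every result below and their part in them was not tested. The 6 that rose in siHAND2 stood there at 2555% (DCN), 961% (COL1A2), 598% (LUM), 282% (PDGFRA), 271% (COL3A1) and 199% (PDGFRB) of their siCTR mean. For DCN that mean was 0.431 CPM, below the 1 CPM of the filter. THY1 fell in siHAND2 to 86.9%, and TWIST1 (99.3%) and ACTA2 (116%) did not pass the threshold there. PRRX1, under the filter, stood at 70.1%. COL1A1 was below 1 CPM in every library (0.526, 0.279 and 0.284 CPM in siHAND2), and no gene of the list was without reads in every library. In bulk RNA, fewer cells of a type and less RNA per cell cannot be told apart.

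Every guidance family had transcripts in LAN5 cells, with very unequal levels among its members. Per kilobase of the canonical transcript, the highest member in siCTR was 51.8 CPM per kb for NRP2, a neuropilin coreceptor of class 3 semaphorins, followed by 39.7 for SLIT3, a secreted repellent. PLXNB2, a receptor of class 4 semaphorins, stood at 21.96, UNC5C at 21.1 and UNC5B at 19.9 CPM per kb, the last pair being netrin receptors linked to repulsion. The highest members of the other families were EFNA5 at 11.1, SEMA4C at 10.1, RGMB at 9.404, ROBO1 at 7.81, EPHB4 at 7.22 and NTN3 at 2.93 CPM per kb in siCTR, ranked by their mean over all 9 libraries. DCC, the netrin receptor linked to attraction, had 0.0307, 0.0001 and 0.0001 CPM in the siCTR libraries. The value of 0.0001 is a constant in the deposited table and stands for no read.

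**Figure D1:**
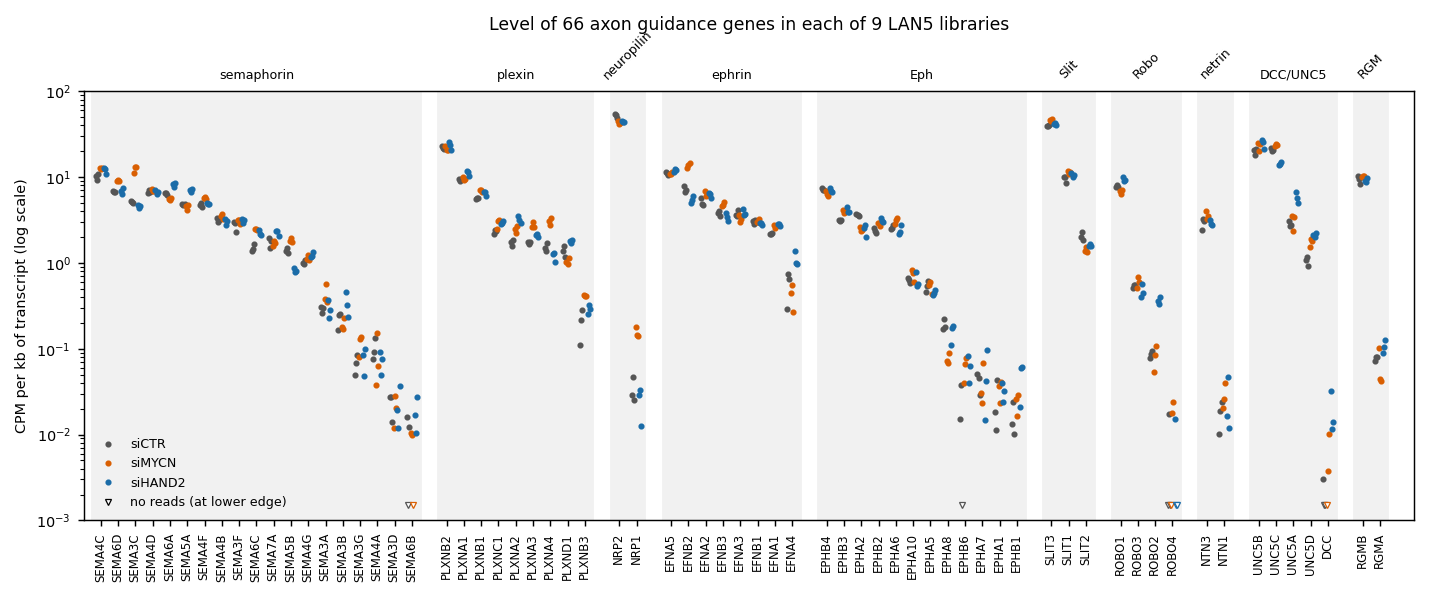
Level of the 66 genes in each library, as CPM per kilobase of canonical transcript on a log axis, grouped by family and ordered by mean level; open triangles at the lower edge mark libraries with no reads. The 3 Slits all lie above 1 CPM per kb, whereas NRP1, ROBO4, NTN1, DCC and RGMA lie below it in every library.

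Of the 66 members, 52 reached 1 CPM in at least 3 of the 9 libraries and were tested, and 14 did not. The median of the mean CPM was 18.1 for the tested members and 23.1 for all 14495 genes tested. In siMYCN, 30 members passed the threshold (adjusted p below 0.05), 23 higher and 7 lower than siCTR. Over all genes tested 35.9% passed, 24.5% higher and 11.4% lower. The members' median log2 fold change was 0.16, against 0.06 over all genes. In siHAND2, 28 members passed, 21 higher and 7 lower, where 29.9% of all genes passed, 18.1% higher and 11.8% lower, and the median was 0.13 against 0.04. Between the knockdowns themselves, 23 members differed, 11 higher and 12 lower in siHAND2, where 26.9% of all genes differed (11.4% higher, 15.5% lower). EFNA4 and ROBO2 entered the test only through their siHAND2 values; over the other 50 members the counts were 30, 26 and 21.

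By role, 14 of 28 tested ligands and 16 of 24 tested receptors passed in siMYCN, and 11 ligands and 17 receptors passed in siHAND2. Of all genes tested, 35.9% passed in siMYCN and 29.9% in siHAND2. The siHAND2 counts include the ligand EFNA4 and the receptor ROBO2, which entered the test only through siHAND2. The difference between ligands and receptors was not tested. In each of the 3 comparisons the libraries of the groups did not overlap for 33 of the 52 members, where the background share of such genes was 49.5% for siMYCN and 42.4% for siHAND2, each set against siCTR, and 38.7% between the knockdowns. EFNA4 and ROBO2 are among the 33 in both comparisons that involve siHAND2. The 2 contrasts against siCTR share their control libraries, so a gene that is by chance low in siCTR is raised in both; a call in both contrasts is not 2 independent results. With that limit, 20 members were called in both contrasts, where 17.9% of all genes were. SEMA4C, SEMA6C, PLXNA2, PLXNA3, PLXNB1, PLXNC1, EFNA2, EPHB2, EPHB3 and UNC5D were higher in both. NRP2, EPHA2 and SLIT2 were lower in both. Calls higher in both made up 19.2% of the tested members and 9.91% of all genes. Calls lower in both made up 5.77% and 5.75%, so this pattern was about as frequent among the members as among all genes. The calls ran in opposite directions for 7 members, or 13.5% of those tested, where 2.29% of all genes did so. SEMA5B, PLXNA4, EFNB2 and UNC5C were higher in siMYCN and lower in siHAND2, and SEMA6A, PLXND1 and ROBO1 were lower in siMYCN and higher in siHAND2. In some of the other fits given below, PLXNA4 lost its siHAND2 call, and UNC5C and PLXND1 lost their siMYCN calls.

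**Figure D2:**
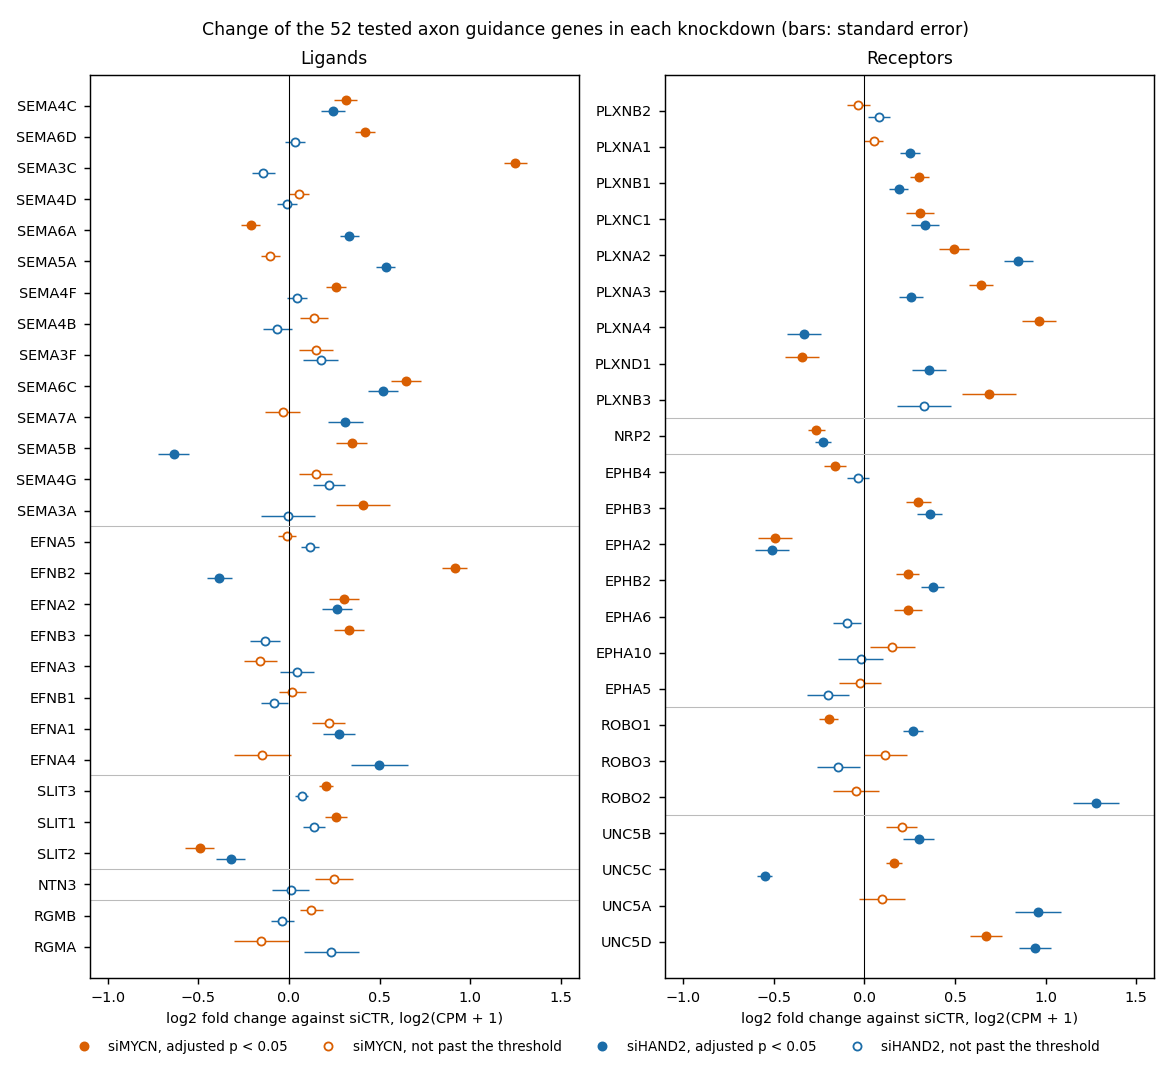
Log2 fold change of the 52 tested members against siCTR (log2(CPM + 1) scale), ligands left and receptors right, with siMYCN in orange and siHAND2 in blue; bars are standard errors and filled points have an adjusted p below 0.05. SEMA3C, PLXNA4 and EFNB2 have the largest siMYCN values, and UNC5A and UNC5D the largest siHAND2 values apart from ROBO2, which entered the test only through siHAND2.

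One promoter for each of 4 patterns is printed to show the DNA upstream of a gene that followed it: EFNB2 for opposite calls, PLXNA2 for higher in both, EPHA2 for lower in both, and SEMA5A for a call in siHAND2 and not in siMYCN. They were chosen among 19 members with a single RefSeq start that equals the gene boundary in the deposited table and whose upstream bases lie in no annotated transcript of the gene. Each run is the 250 bases before the start, from RefSeq's GRCh38.p14, 5′ to 3′ on the gene's strand, with matches of the general E-box CANNTG in capitals. The intervals, all on the minus strand, are chr13:106535663-106535912 for EFNB2, chr1:208244385-208244634 for PLXNA2, chr1:16156070-16156319 for EPHA2 and chr5:9546076-9546325 for SEMA5A.
EFNB2: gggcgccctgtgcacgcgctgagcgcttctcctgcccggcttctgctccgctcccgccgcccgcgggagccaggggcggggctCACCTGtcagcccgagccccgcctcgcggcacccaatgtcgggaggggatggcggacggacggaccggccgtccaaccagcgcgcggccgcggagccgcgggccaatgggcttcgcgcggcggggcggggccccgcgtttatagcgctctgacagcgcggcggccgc
PLXNA2: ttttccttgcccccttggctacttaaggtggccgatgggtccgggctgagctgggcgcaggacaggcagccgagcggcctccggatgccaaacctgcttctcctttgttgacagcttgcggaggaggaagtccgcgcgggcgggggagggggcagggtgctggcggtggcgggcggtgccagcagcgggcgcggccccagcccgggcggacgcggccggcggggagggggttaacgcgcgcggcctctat
EPHA2: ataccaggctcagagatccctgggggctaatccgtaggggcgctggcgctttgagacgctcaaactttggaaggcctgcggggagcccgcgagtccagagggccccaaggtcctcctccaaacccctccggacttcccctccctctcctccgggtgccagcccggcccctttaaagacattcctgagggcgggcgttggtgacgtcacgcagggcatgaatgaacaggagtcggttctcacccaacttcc
SEMA5A: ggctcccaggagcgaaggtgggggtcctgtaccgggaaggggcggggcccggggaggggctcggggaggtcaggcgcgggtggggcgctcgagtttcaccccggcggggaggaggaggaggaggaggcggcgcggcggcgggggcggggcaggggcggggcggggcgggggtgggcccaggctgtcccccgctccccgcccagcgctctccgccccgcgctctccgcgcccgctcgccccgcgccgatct
EFNB2 has 1 match, CACCTG, whose first base is at position -167 relative to the start, and the other 3 runs have none. RefSeq promoters were found for 56 members with 91 starts, and the 250 bases before each start were searched on both strands. CANNTG, which also covers the narrower words, was in 48 of the 91 runs of 250 bases (52.7%) and in 61.8% of those of all 35116 promoters. CACGTG, the E-box typical of MYC proteins, was in 3 runs (3.30%, against 6.34% of all promoters), and CATCTG, a word reported for HAND2, in 9 (9.89%, against 12.2%). The median GC content was 66.4% for the members and 58% for all promoters. A match is a description of the letters and not a binding site, and its absence says nothing of the factor.

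Among the ligands, semaphorins signal through plexins, as secreted (class 3) or membrane-bound (classes 4 to 7) proteins. Of 14 tested semaphorins, 7 rose and 1 fell in siMYCN, and 5 rose and 1 fell in siHAND2. Among all genes tested, 24.5% rose and 11.4% fell in siMYCN, and 18.1% rose and 11.8% fell in siHAND2. SEMA3C (chr7:80742538-80922359), a secreted semaphorin that binds both neuropilins, had the largest siMYCN value of any member above 5 CPM. It was at 25.5, 25.01 and 24.3 CPM with siCTR, 54.6, 63.7 and 64.01 with siMYCN and 23.3, 21.5 and 22.7 with siHAND2. Every siMYCN library lay above every other library, and the mean was 244% of siCTR (log2 fold change 1.25 ± 0.06 (SE), adjusted p = 2.44e-09). The siHAND2 libraries lay just under siCTR without overlap, but the difference missed the threshold (log2 fold change -0.14 ± 0.06 (SE), adjusted p = 0.103); it passed after median-ratio rescaling (log2 fold change -0.18, adjusted p = 0.0369) and quantile normalization (log2 fold change -0.18, adjusted p = 0.0468).

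SEMA6C (chr1:151131685-151146664), a transmembrane semaphorin, was at 5.35, 5.62 and 6.41 CPM with siCTR, 9.67, 9.74 and 9.42 with siMYCN and 9.34, 8.48 and 8.29 with siHAND2. Both knockdowns lay wholly above siCTR (log2 fold changes 0.65 and 0.52, adjusted p = 1.86e-05 and 0.000185). SEMA4C, the semaphorin with the highest level per kb and a ligand of plexin B receptors, was at 37.5, 33.9 and 39.6 CPM with siCTR, 46.4, 45.8 and 46.3 with siMYCN and 47.1, 44.8 and 40.2 with siHAND2. It rose in both, by 0.31 and 0.24 (adjusted p = 0.00123 and 0.00863); without siCTR replicate 2 the siHAND2 call was lost (log2 fold change 0.18, adjusted p = 0.0629). SEMA6D, which binds PLXNA1, rose in siMYCN from 41.1, 39.4 and 39.3 CPM in siCTR to 53.8, 54.1 and 53.3 (log2 fold change 0.42 ± 0.06 (SE), adjusted p = 2.63e-05). Its siHAND2 libraries, at 40.9, 37.8 and 44.2 CPM, overlapped siCTR (log2 fold change 0.03 ± 0.06 (SE), adjusted p = 0.701), and the siHAND2 and siMYCN libraries differed by -0.39 (adjusted p = 5.94e-05).

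SEMA5A and SEMA5B are the members of a transmembrane class with thrombospondin repeats, and their values moved differently. SEMA5A (chr5:9035033-9546075) was at 56.9, 56.1 and 56.4 CPM with siCTR, 54.4, 48.6 and 54.9 with siMYCN and 83.3, 78.1 and 85.5 with siHAND2. The siHAND2 libraries stood above all others (log2 fold change 0.53 ± 0.05 (SE), adjusted p = 1.14e-06) and exceeded siMYCN by 0.64 (adjusted p = 1.23e-07). The siMYCN libraries lay under siCTR without passing (log2 fold change -0.10 ± 0.05 (SE), adjusted p = 0.151), but passed after median-ratio rescaling (log2 fold change -0.16, adjusted p = 0.0249) and quantile normalization (log2 fold change -0.15, adjusted p = 0.0302). SEMA5B (chr3:122909082-123028605) was at 6.66, 7.34 and 6.26 CPM with siCTR, 8.66, 9.47 and 8.43 with siMYCN and 4.24, 3.78 and 3.93 with siHAND2. The 3 groups did not overlap, with siMYCN highest and siHAND2 lowest. SEMA5B rose in siMYCN (log2 fold change 0.35 ± 0.09 (SE), adjusted p = 0.00556) and fell in siHAND2 (log2 fold change -0.64 ± 0.09 (SE), adjusted p = 3.92e-05).

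SEMA6A (chr5:116443616-116574934), a transmembrane ligand of PLXNA2 and PLXNA4, had the reverse order. It was at 45.1, 44.7 and 42.6 CPM with siCTR, 38.4, 36.6 and 38.95 with siMYCN and 56.9, 52.8 and 57.8 with siHAND2. No group overlapped another; SEMA6A fell in siMYCN (log2 fold change -0.21 ± 0.05 (SE), adjusted p = 0.00452) and rose in siHAND2 (log2 fold change 0.33 ± 0.05 (SE), adjusted p = 0.000131). Among the others, SEMA4F rose in siMYCN to 120.5% of siCTR (log2 fold change 0.26 ± 0.06 (SE), adjusted p = 0.00163), SEMA3A in siMYCN from 2.34 ± 0.216 to 3.503 ± 0.992 CPM (mean ± SD, n = 3) and SEMA7A in siHAND2 from 5.91 ± 0.787 to 7.55 ± 0.557 CPM. The SEMA3A and SEMA7A calls were weak (adjusted p = 0.0415 and 0.0238) and reached 0.225 and 0.136 over the alternatives. The SEMA3A call was lost without any single siCTR library or siMYCN replicate 2, and the SEMA7A call without siCTR replicate 2 or siHAND2 replicate 1 or 2. Both calls were also lost without the filter on low values and after quantile normalization. Median-ratio rescaling and leaving out the intensity trend lost the SEMA3A call as well. SEMA3F, SEMA4B, SEMA4D and SEMA4G, with siCTR means of 9.85, 11.9, 30.8 and 4.58 CPM, passed in no comparison. The strand used in counting is not given in the sources used here, and SEMA4G overlaps MRPL43, a gene on the opposite strand at 522% of its CPM.

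Ephrins are membrane-anchored ligands, the A class by a lipid and the B class by a transmembrane segment that can signal back into its own cell. EFNB2 (chr13:106489745-106535662), the B ephrin that pairs with EPHB4, was at 39.3, 33.6 and 35.04 CPM with siCTR, 64.6, 68.3 and 72.9 with siMYCN and 25.2, 26.8 and 30.04 with siHAND2. The order siMYCN, siCTR, siHAND2 held for every library, with no overlap. EFNB2 rose to 191% of siCTR in siMYCN (log2 fold change 0.91 ± 0.07 (SE), adjusted p = 1.26e-07) and fell to 76.03% in siHAND2 (log2 fold change -0.38 ± 0.07 (SE), adjusted p = 0.00064). EFNB3, at 12.3, 12.8 and 11.2 CPM in siCTR, rose in siMYCN to 14.98, 15.1 and 16.5 CPM (log2 fold change 0.33 ± 0.08 (SE), adjusted p = 0.00509). Its siHAND2 libraries were at 12.3, 10.95 and 9.78 CPM and overlapped siCTR (log2 fold change -0.13 ± 0.08 (SE), adjusted p = 0.245).

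EFNA5, the ephrin with the highest level per kb, was at 62.3, 60.2 and 56.1 CPM with siCTR, 57.99, 58.2 and 60.9 with siMYCN and 62.4, 66.1 and 65.5 with siHAND2, and passed in neither contrast against siCTR (adjusted p = 0.887 and 0.0848). EFNA2 rose in both knockdowns, from 12.3 ± 1.29 CPM to 15.4 ± 1.22 in siMYCN and 15.02 ± 1.05 in siHAND2 (mean ± SD, n = 3; adjusted p = 0.0096 and 0.0235). Those p-values reached 0.0611 and 0.0944 over the alternatives: the siMYCN call was lost without siMYCN replicate 1, and the siHAND2 call without siCTR replicate 2 or 3 or siHAND2 replicate 1 or 2. Both EFNA2 calls were also lost after quantile normalization, and the siHAND2 call after median-ratio rescaling. EFNA1 rose in siHAND2 from 3.399 ± 0.0568 to 4.32 ± 0.155 CPM (adjusted p = 0.0282, up to 0.0901 over the alternatives, among them the fits without siCTR replicate 1 or 2 or siHAND2 replicate 1 or 2). EFNA4, close to the filter, was at 0.367, 0.936 and 0.807 CPM with siCTR, 0.564, 0.690 and 0.334 with siMYCN and 1.74, 1.23 and 1.205 with siHAND2 and passed in siHAND2 (adjusted p = 0.0244, up to 0.132 over the alternatives, among them the fit without siCTR replicate 1). Since EFNA4 entered the test only through siHAND2, this call is a description of those values. EFNA3 and EFNB1, at 6.77 and 10.1 CPM in siCTR, passed in no comparison.

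The Slits are secreted repellents read by Robo receptors. SLIT3 (chr5:168661733-169301139) was at 388, 381 and 389 CPM with siCTR, 445, 433 and 457 with siMYCN and 406, 411 and 398 with siHAND2. The siMYCN libraries were above all others, and SLIT3 rose there by 0.21 on the log2 scale (adjusted p = 0.000525), while siHAND2 missed the threshold (adjusted p = 0.18). SLIT1 rose in siMYCN as well, from 75.9 ± 6.44 to 90.98 ± 4.12 CPM (mean ± SD, n = 3; log2 fold change 0.26 ± 0.06 (SE), adjusted p = 0.00335), and its siHAND2 mean was 83.7 ± 4.79 CPM (adjusted p = 0.0949). SLIT2 (chr4:20251905-20620561) went the other way, at 16.2, 18.3 and 14.8 CPM with siCTR, 11.03, 12.3 and 10.8 with siMYCN and 12.8, 13.3 and 12.6 with siHAND2. Both knockdowns lay under every siCTR library, and SLIT2 fell in siMYCN (log2 fold change -0.49 ± 0.08 (SE), adjusted p = 0.000163) and in siHAND2 (log2 fold change -0.32 ± 0.08 (SE), adjusted p = 0.00576).

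NTN3, a secreted netrin and the only tested one, was at 5.35, 7.11 and 6.74 CPM with siCTR, 8.699, 7.02 and 7.61 with siMYCN and 6.87, 6.29 and 6.09 with siHAND2. The siMYCN libraries overlapped siCTR and missed the threshold (log2 fold change 0.25 ± 0.10 (SE), adjusted p = 0.0709), but passed without siCTR replicate 2 (log2 fold change 0.32, adjusted p = 0.0468). RGMB, a membrane-linked ligand of neogenin, was at 45.5, 42.9 and 37.6 CPM with siCTR, 45.2, 45.7 and 46.1 with siMYCN and 40.5, 38.9 and 43.1 with siHAND2, and its knockdown values overlapped siCTR (adjusted p = 0.143 and 0.713). RGMA stayed between 0.480 and 1.42 CPM over the 9 libraries and passed in no comparison.

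**Figure D3:**
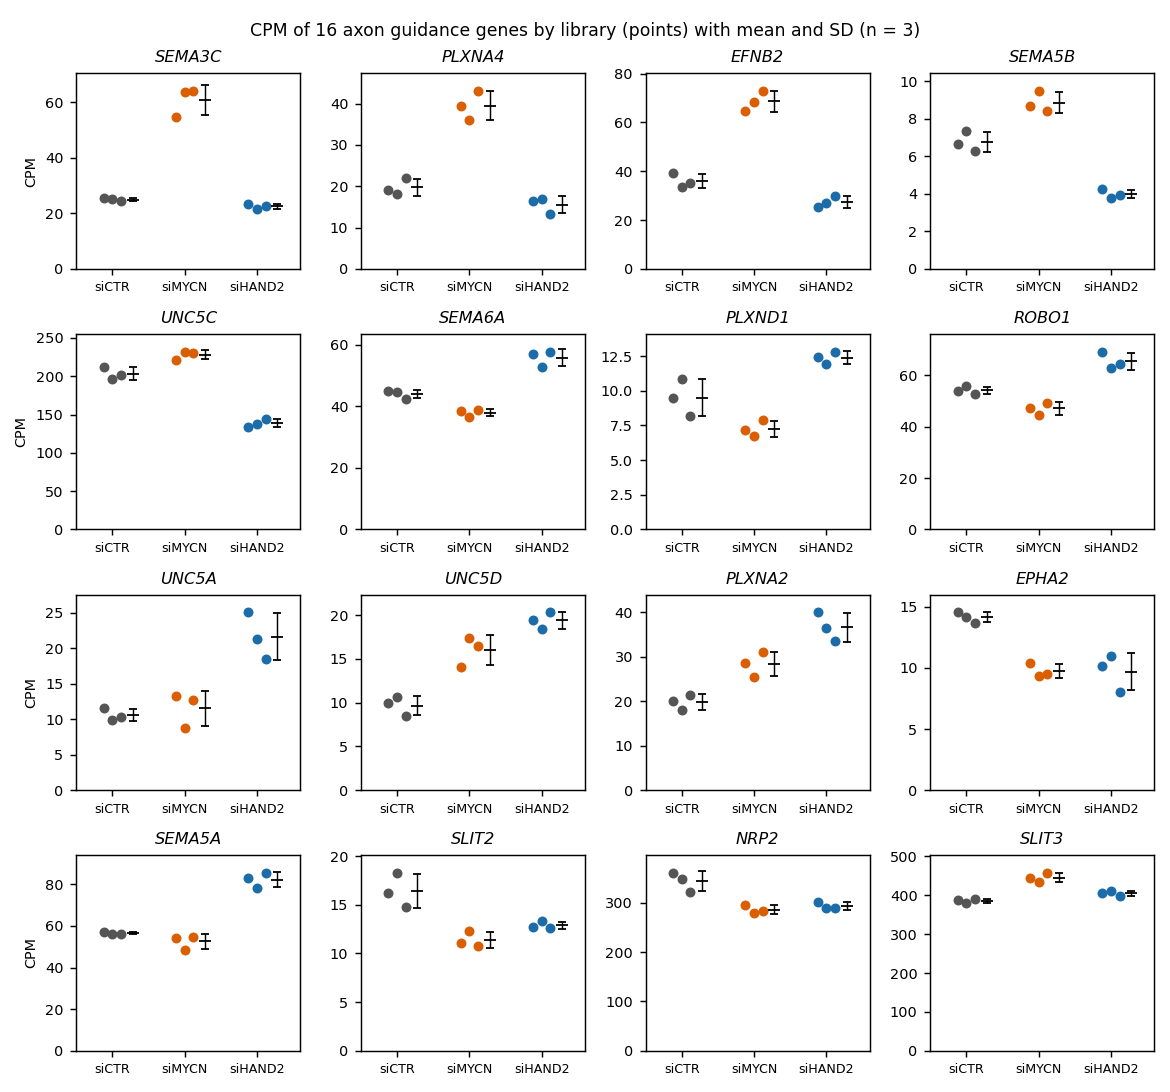
CPM of 16 members in each library (points) with mean and SD beside them (n = 3), on axes that start at 0. SEMA5B, EFNB2, PLXNA4 and UNC5C lie above siCTR in siMYCN and below it in siHAND2, and SEMA6A, PLXND1 and ROBO1 the reverse; SEMA3C is raised in siMYCN, UNC5A and SEMA5A in siHAND2.

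Among the receptors, plexins are the signalling receptors of semaphorins, and 7 of the 9 tested passed in each knockdown. In all, 6 rose and 1 fell in siMYCN, and 6 rose and 1 fell in siHAND2. The share of all genes tested that passed was 35.9% in siMYCN and 29.9% in siHAND2. PLXNA4 (chr7:132123332-132648688), which with a neuropilin reads SEMA3A, was at 19.1, 18.1 and 22.1 CPM with siCTR, 39.4, 35.97 and 43.1 with siMYCN and 16.5, 16.9 and 13.2 with siHAND2. The siMYCN mean was 199.8% of siCTR and no siMYCN library came near another group (log2 fold change 0.96 ± 0.09 (SE), adjusted p = 1.1e-06). All siHAND2 libraries were below siCTR (log2 fold change -0.33 ± 0.09 (SE), adjusted p = 0.013), a call that was lost without siCTR replicate 3 (log2 fold change -0.25, adjusted p = 0.0658) or siHAND2 replicate 3 (log2 fold change -0.22, adjusted p = 0.0513). The difference between the knockdowns was -1.30 (adjusted p = 1.76e-08).

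PLXNA2 (chr1:208022242-208244384), a receptor of SEMA6A, was at 20.1, 18.01 and 21.4 CPM with siCTR, 28.6, 25.5 and 31.1 with siMYCN and 39.99, 36.4 and 33.4 with siHAND2. The groups did not overlap and the order was siCTR, siMYCN, siHAND2. It rose by 0.49 and 0.85 (adjusted p = 0.000199 and 6.92e-07), and siHAND2 exceeded siMYCN by 0.36 (adjusted p = 0.00353). PLXNA3 (chrX:154458281-154477779), a partner of NRP2 in reading SEMA3F, was at 19.01, 18.1 and 19.1 CPM with siCTR, 28.6, 32.8 and 28.2 with siMYCN and 22.7, 23.5 and 21.5 with siHAND2. It rose in both, with siMYCN highest (0.64 against 0.26; adjusted p = 1.87e-06 and 0.00718). PLXNA3 overlaps LAGE3 on the opposite strand, which had 33.1% of its CPM.

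PLXND1 (chr3:129555175-129606818), the direct receptor of SEMA3E and a receptor of SEMA3C with neuropilins, was at 9.48, 10.9 and 8.21 CPM with siCTR, 7.17, 6.71 and 7.88 with siMYCN and 12.4, 11.9 and 12.8 with siHAND2. It was lower in siMYCN (log2 fold change -0.34 ± 0.09 (SE), adjusted p = 0.00812) and higher in siHAND2 (log2 fold change 0.36 ± 0.09 (SE), adjusted p = 0.00764), and the 3 groups did not overlap. Without siCTR replicate 2 the siMYCN call was lost (log2 fold change -0.25, adjusted p = 0.0567). PLXNB2, the plexin with the highest level per kb, was at 146, 140.4 and 135 CPM with siCTR, 147, 133 and 133 with siMYCN and 163, 151 and 134 with siHAND2, with overlap throughout (adjusted p = 0.716 and 0.346). The siHAND2 difference passed without siHAND2 replicate 3 (log2 fold change 0.16, adjusted p = 0.0312).

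PLXNB1, a receptor of SEMA4D, rose from 40.4 ± 0.804 CPM to 50.1 ± 1.49 in siMYCN and 46.2 ± 2.499 in siHAND2 (adjusted p = 0.000264 and 0.011, the latter up to 0.0531 without siCTR replicate 1 or siHAND2 replicate 2). PLXNC1, a receptor of SEMA7A, was at 16.5, 18.02 and 17.5 CPM with siCTR, 18.8, 22.9 and 23.6 with siMYCN and 21.4, 21.7 and 23.2 with siHAND2 and rose in both (adjusted p = 0.00538 and 0.00393), but CEP83 overlaps it on the opposite strand at 108% of its CPM. PLXNA1, a receptor of SEMA6D, rose in siHAND2 from 86.7 ± 3.18 to 104 ± 7.83 CPM (log2 fold change 0.25 ± 0.05 (SE), adjusted p = 0.00226), its siMYCN libraries overlapped siCTR (adjusted p = 0.503), and siHAND2 exceeded siMYCN by 0.20 (adjusted p = 0.0111). PLXNB3, at 0.672, 1.34 and 1.72 CPM in siCTR, rose in siMYCN to 2.62, 2.53 and 2.502 CPM (log2 fold change 0.69 ± 0.15 (SE), adjusted p = 0.00197) and was at 1.56, 1.98 and 1.79 CPM in siHAND2 (adjusted p = 0.109). SRPK3 overlaps PLXNB3 on the same strand at 37.8% of its CPM.

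NRP2 (chr2:205681990-205798133), a neuropilin that binds SEMA3F and SEMA3C, was at 361, 349 and 322 CPM with siCTR, 297, 278 and 283 with siMYCN and 302, 289 and 289 with siHAND2. All 6 knockdown libraries lay below the 3 siCTR libraries and overlapped one another. NRP2 fell in siMYCN (log2 fold change -0.27 ± 0.05 (SE), adjusted p = 0.000307) and in siHAND2 (log2 fold change -0.23 ± 0.05 (SE), adjusted p = 0.00129). NRP1, the neuropilin that binds SEMA3A, was under the filter, at 0.161, 0.262 and 0.142 CPM with siCTR, 1.01, 0.805 and 0.788 with siMYCN and 0.165, 0.185 and 0.0710 with siHAND2. These values correspond to 15, 69 and 12 reads summed over the 3 libraries of each group. The siMYCN libraries lay above all others, and in the fit without a filter on low values NRP1 was higher there by 0.65 (adjusted p = 3.74e-05).

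Eph receptors are receptor tyrosine kinases, and 12 were listed, of which 7 were tested. In siMYCN 3 rose and 2 fell, and in siHAND2 2 rose and 1 fell. The shares over all genes tested were 24.5% higher and 11.4% lower in siMYCN, and 18.1% higher and 11.8% lower in siHAND2. EPHA2 (chr1:16124337-16156069) was at 14.6, 14.2 and 13.7 CPM with siCTR, 10.4, 9.36 and 9.49 with siMYCN and 10.1, 10.95 and 8.01 with siHAND2. Both knockdowns lay wholly below siCTR and overlapped each other (log2 fold change -0.49 ± 0.09 (SE), adjusted p = 0.000627 in siMYCN; log2 fold change -0.51 ± 0.09 (SE), adjusted p = 0.000569 in siHAND2). EPHB2, a receptor of B ephrins, was at 28.4, 26.3 and 24.5 CPM with siCTR, 32.2, 32.02 and 29.7 with siMYCN and 36.3, 34.3 and 32.98 with siHAND2. It rose in both (0.24 and 0.38; adjusted p = 0.00735 and 0.000257).

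EPHB3, also a receptor of B ephrins, rose from 13.3 ± 0.282 CPM to 16.6 ± 0.710 in siMYCN and 17.4 ± 1.26 in siHAND2 (adjusted p = 0.00281 and 0.000772). EPHB4, the partner of EFNB2, was at 32.7, 31.03 and 30.6 CPM with siCTR, 29.9, 27.6 and 26.6 with siMYCN and 32.4, 30.03 and 29.5 with siHAND2. Its fall in siMYCN was close to the threshold (log2 fold change -0.16 ± 0.06 (SE), adjusted p = 0.0453), and it was lost without any single siCTR library, without siMYCN replicate 2 or 3 and without siHAND2 replicate 2 (adjusted p up to 0.182). The EPHB4 call was also lost without the filter on low values and without the intensity trend. SLC12A9 overlaps EPHB4 on the opposite strand at 45.2% of its CPM. EPHA6 rose in siMYCN from 42.2 ± 2.18 to 50.1 ± 4.06 CPM (adjusted p = 0.0228, up to 0.104 over the alternatives, among them the fits without siCTR replicate 1 or 2 and without siMYCN replicate 2 or 3). EPHA5 and EPHA10 passed in no comparison.

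ROBO1 (chr3:78597239-79767998), the main Robo in these libraries, was at 53.8, 55.7 and 52.8 CPM with siCTR, 47.4, 44.6 and 49.3 with siMYCN and 69.2, 62.7 and 64.3 with siHAND2. The groups did not overlap. ROBO1 fell in siMYCN (log2 fold change -0.20 ± 0.05 (SE), adjusted p = 0.00797) and rose in siHAND2 (log2 fold change 0.27 ± 0.05 (SE), adjusted p = 0.00108). ROBO2 was at 0.703, 0.786 and 0.854 CPM with siCTR, 0.483, 0.767 and 0.960 with siMYCN and 3.29, 3.03 and 3.65 with siHAND2, where it stood at 425% of siCTR (log2 fold change 1.28 ± 0.13 (SE), adjusted p = 1.2e-06). Since ROBO2 entered the test only through siHAND2, its call is a description of those values. ROBO3 was between 1.81 and 3.14 CPM in the 9 libraries and passed in no comparison.

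The UNC5 receptors read netrins, often as repellents, and can trigger cell death when no ligand is bound. All 4 were called in siHAND2, 3 higher and 1 lower, and 2 were called higher in siMYCN. Over all genes tested, 29.9% were called in siHAND2 and 24.5% were called higher in siMYCN. UNC5C (chr4:95162504-95549206) was at 212, 197 and 201.1 CPM with siCTR, 221, 232 and 230.4 with siMYCN and 134, 138 and 144 with siHAND2. The siHAND2 libraries lay far below the others (log2 fold change -0.55 ± 0.04 (SE), adjusted p = 8.45e-08). The siMYCN libraries lay just above siCTR (log2 fold change 0.16 ± 0.04 (SE), adjusted p = 0.00802), a call that was lost after median-ratio rescaling (log2 fold change 0.11, adjusted p = 0.0603), quantile normalization (log2 fold change 0.10, adjusted p = 0.062) and without siCTR replicate 2 (log2 fold change 0.14, adjusted p = 0.0504).

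UNC5A (chr5:176810519-176880898) was at 11.6, 9.92 and 10.2 CPM with siCTR, 13.3, 8.74 and 12.6 with siMYCN and 25.1, 21.3 and 18.5 with siHAND2. The siHAND2 libraries spread over a wide range but lay above all others, at 204% of the siCTR mean (log2 fold change 0.96 ± 0.13 (SE), adjusted p = 2.58e-05), while siMYCN overlapped siCTR (log2 fold change 0.10 ± 0.13 (SE), adjusted p = 0.58). UNC5D was at 9.97, 10.6 and 8.45 CPM with siCTR, 14.1, 17.4 and 16.5 with siMYCN and 19.5, 18.4 and 20.3 with siHAND2. It rose in both (0.67 and 0.94; adjusted p = 2.2e-05 and 5.28e-07). The difference between the knockdowns was 0.27 (adjusted p = 0.0325) and was lost without siMYCN replicate 1 or 3 and without siHAND2 replicate 1 or 3 (adjusted p up to 0.165). That call was also lost without the filter on low values and without the intensity trend. LSM12P1 overlaps UNC5D on the opposite strand at 11.8% of its CPM.

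UNC5B was at 139.8, 123 and 146 CPM with siCTR, 169, 137 and 166 with siMYCN and 184, 174 and 147 with siHAND2. It rose in siHAND2 (log2 fold change 0.30 ± 0.09 (SE), adjusted p = 0.0139), but the call was lost without the intensity trend and without siCTR replicate 2 or siHAND2 replicate 1 or 2 (adjusted p up to 0.0866). In siMYCN it missed the threshold (log2 fold change 0.21 ± 0.09 (SE), adjusted p = 0.0707) and passed when only the siMYCN and siCTR libraries were fitted (log2 fold change 0.21, adjusted p = 0.0329), without siMYCN replicate 2 (log2 fold change 0.30, adjusted p = 0.0122), without siCTR replicate 3 (log2 fold change 0.26, adjusted p = 0.0481) and without siHAND2 replicate 3 (log2 fold change 0.21, adjusted p = 0.0278).

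The other genes of the pathway were read from 2 lists. Of 47 tested signalling partners inside the cell, such as kinases, collapsin response mediators and actin regulators, 28 rose and 2 fell in siMYCN, and 16 rose and 2 fell in siHAND2. Called in all were 63.8% and 38.3% of the list. Of all genes tested, 24.5% rose and 11.4% fell in siMYCN, and 18.1% rose and 11.8% fell in siHAND2. Their median log2 fold changes were 0.06 and 0.04, and those of the list 0.19 and 0.09. Between the knockdowns 2 of the list were higher and 15 lower in siHAND2, where 11.4% of all genes tested were higher and 15.5% lower. The split of the list was 4 and 13 after median-ratio rescaling and 6 and 12 after quantile normalization. DPYSL3, a collapsin response mediator in semaphorin signalling, was at 635, 606 and 584 CPM with siCTR, 1021, 993 and 1046 with siMYCN and 883, 799.7 and 805 with siHAND2, and rose in both (0.74 and 0.45; adjusted p = 2.16e-08 and 2.21e-06). TRIO, an exchange factor downstream of DCC, rose by 0.39 in siMYCN and 0.19 in siHAND2 (adjusted p = 5.6e-06 and 0.00411). MICAL3, of a family of actin-oxidising enzymes linked to plexins, rose by 0.20 and 0.38 (adjusted p = 0.00157 and 4.79e-06).

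Of 38 tested surface proteins with guidance functions outside the member rule, 16 rose and 5 fell in siMYCN, and 18 rose and 6 fell in siHAND2, with medians of 0.17 and 0.18. Called in all were 55.3% and 63.2% of the list, against 35.9% and 29.9% of all genes tested, whose medians were 0.06 and 0.04. TENM1, among the 18, reached 1 CPM only in siHAND2 (1.41, 1.39 and 1.52 CPM), so its rise is a description of those values. L1CAM, an adhesion molecule that joins neuropilin complexes, was at 86.7, 86.7 and 81.05 CPM with siCTR, 168, 162 and 164 with siMYCN and 108, 96.7 and 93.1 with siHAND2. The siMYCN rise (log2 fold change 0.95 ± 0.05 (SE), adjusted p = 7.75e-09) exceeded the siHAND2 rise (log2 fold change 0.22 ± 0.05 (SE), adjusted p = 0.00416) by the direct contrast, -0.72 (adjusted p = 1.78e-08). NRCAM, an adhesion molecule found in NRP2 complexes, was at 155, 158 and 152 CPM with siCTR, 196, 196 and 210.1 with siMYCN and 81.2, 75.6 and 92.1 with siHAND2. It rose in siMYCN (log2 fold change 0.37 ± 0.06 (SE), adjusted p = 0.000124) and fell in siHAND2 (log2 fold change -0.90 ± 0.06 (SE), adjusted p = 7.4e-09), as SEMA5B, PLXNA4, EFNB2 and UNC5C did. RTN4, the outgrowth inhibitor Nogo, rose by 0.41 and 0.19 (adjusted p = 1.48e-06 and 0.00194). SLITRK4, a synaptic adhesion protein, was at 7.49, 6.63 and 7.402 CPM with siCTR, 7.25, 5.75 and 7.81 with siMYCN and 20.3, 19.99 and 19.5 with siHAND2, and rose in siHAND2 (log2 fold change 1.36 ± 0.09 (SE), adjusted p = 1.28e-08).

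**Figure D4:**
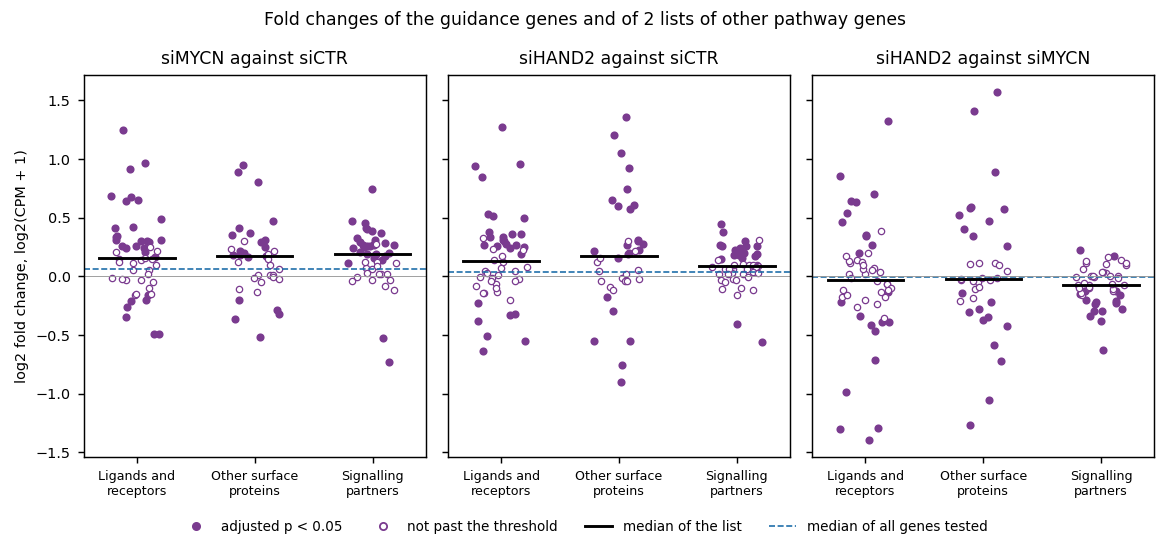
Log2 fold changes of the tested ligands and receptors and of the surface and signalling lists in the 3 comparisons; filled points have an adjusted p below 0.05, black lines are list medians and the dashed line is the median of all genes tested. In siMYCN the 3 list medians (0.16, 0.17 and 0.19) lie above the median of all genes (0.06), and between the knockdowns the signalling list has 15 of its 17 called genes lower in siHAND2. Of all genes tested, 11.4% were higher and 15.5% lower in siHAND2 than in siMYCN.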

How the data were processed

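Total RNA of LAN5 cells was sequenced in 9 libraries, 3 per siRNA. Reads were aligned with STAR 2.5.1 and handled in Partek, per the submitters' processing notes; counting, strand use and filters are not given in the sources used here. The authors deposited 1 table of CPM (read counts divided by library size), in which every value includes a constant of 0.0001. The submitters' processing notes name hg19, but the deposited positions follow GRCh38: 91.4% of 18215 symbols started within 5000 bp of their GRCh38 start. Positions are given as GRCh38, counted from 1, the end being 1 base before the deposited stop.

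Low values fell on steps whose inverse gives the depth, but only 79.3% to 80.9% of them were whole multiples within 0.02 of a step, so no count model was used. Counting error alone limits values of a few reads. On log2(CPM + 1), the 14495 genes that reached 1 CPM in 3 or more libraries (10589 did not) were fitted with limma 3.58.1 in R 4.3.3 with an intensity trend over all 9 libraries, and p-values were adjusted by Benjamini-Hochberg over all genes tested, two-sided, with a threshold of 0.05. Fold changes near 1 CPM are understated on this scale. The fit was tested on simulated data. Levels per kb use GENCODE canonical transcript lengths, found for all 66 members.

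Given in full are, per contrast, up to 10 called members with the largest change, a mean of at least 5 CPM and groups that do not overlap; members called in opposite directions; and the highest member per kb of each family. From each pathway list the 2 genes with the smallest p in each contrast against siCTR are named. Members and lists were chosen with earlier results of these data known. Alternatives were pseudocounts of 0.1 and 5, no filter, a filter of 5 CPM, median-ratio and quantile scaling, 2 groups alone, no trend, a replicate block and each library left out; running them on the pathway lists was chosen after seeing the data.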

Additional observations from a re-analysis of the deposited data

How the results depend on the processing

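The counts of called members stayed within 1.5 times of the reported ones under every alternative run. Leaving out 1 library gave 26 to 31 members in siMYCN, 21 to 28 in siHAND2 and 19 to 23 between the knockdowns. Of the called members, 24 of 30, 20 of 28 and 19 of 23 passed under every alternative in which they were tested. ROBO2 and EFNA4 were tested in 14 alternatives, since they fell below the filter when any siHAND2 library was left out and at 5 CPM, and PLXNB3 in 17. No target gene or member given in full changed direction. The split between the knockdowns, 11 higher and 12 lower in siHAND2, turned to 12 higher and 11 lower under median-ratio and quantile scaling and was 11 and 11 at a pseudocount of 0.1 and 10 and 10 without the trend. Among 84 results of the 28 members given in full, the 9 alternatives that keep all libraries lost 1 call each under median-ratio and quantile scaling, 2 without the filter and 4 without the trend, and gained up to 5 calls (replicate block, which also called UNC5B in siMYCN, adjusted p = 0.0174). Leaving out 1 library lost 19 calls, gained 9 and left 728 on their side of the threshold. The signalling list ranged from 25 to 32 calls in siMYCN, 13 to 18 in siHAND2 and 13 to 20 between the knockdowns, and the surface list from 18 to 21, 18 to 25 and 17 to 23.

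With the replicate number as a block, 31, 29 and 29 members passed, where the reported counts are 30, 28 and 23. The labels do not say that a number marks a shared culture, and pairing was taken only where every same-numbered pair deviated together with a correlation over 0.1, so the fit without the block is the reported one. The correlations of deviations in the 3 comparisons were 0.17, 0.13 and 0.31 for replicate 1, 0.08, 0.04 and -0.04 for replicate 2 and 0.18, 0.17 and 0.17 for replicate 3, against -0.30 to 0.14 for pairs of different numbers. Libraries of replicates 1 and 3 correlated best with their own number, and those of replicate 2 did not all do so. The deposited values do not show which reads were shared between overlapping genes. Members under 1 CPM rest on few reads, with 1 to 77 reads summed over the 3 libraries of a group in siCTR, and differences among them were mostly not detectable at this depth.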

Other observations

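The 14 members under the filter were SEMA3B, SEMA3D, SEMA3G, SEMA4A, SEMA6B, NRP1, EPHA1, EPHA7, EPHA8, EPHB1, EPHB6, ROBO4, NTN1 and DCC, and 11 of the 66 members had no library at 1 CPM. EPHA8 was at 0.856, 1.12 and 0.902 CPM with siCTR, 0.363, 0.345 and 0.446 with siMYCN and 0.559, 0.876 and 0.921 with siHAND2. Its siMYCN libraries lay below all others, on 31 reads against 77 in siCTR, and limma without the filter gave a log2 fold change of -0.50 (adjusted p = 0.00261). DCC had 1 read over the siCTR libraries, 4 over siMYCN and 17 over siHAND2, where it was at 0.329, 0.120 and 0.142 CPM. The same fit gave 0.24 for DCC in siHAND2 (adjusted p = 0.025). EPHB6 had 6, 20 and 21 reads in siCTR, siMYCN and siHAND2 and missed the threshold in both (adjusted p = 0.0557 and 0.0619).

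Several members are neighbours on a chromosome. EFNA4, EFNA3 and EFNA1 lie in a row on chromosome 1, with gaps of 9.28 and 40.3 kb (EFNA4 entered the test only through siHAND2, so their calls are not compared). ROBO2 and ROBO1 lie 947 kb apart on chromosome 3 (ROBO2 likewise entered only through siHAND2). EPHA8 and EPHB2 lie 107 kb apart on chromosome 1; in siMYCN EPHB2 rose and EPHA8 had the lower values given above. PLXNB3 and PLXNA3 lie 679 kb apart on chromosome X and both rose in siMYCN. Of the 66 members, 25 overlap another gene of the table.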
